A study of Homo sapiens with 30 samples.

Results

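The potassium channel genes described here are the genes whose symbols read KCN, then letters, then a number, with antisense, intronic and overlapping-transcript names left out (KCNQ1OT1, KCNJ2-AS1 and KCNIP4-IT1). The rule found 96 genes, out of 23262 in the time-course tables and 23261 in the clone table. Of these, 50 reached at least 10 counts in 1 or more of the 20 columns and are described, and 46 stayed below 10 counts in every column. By known main site of action, 32 genes were listed as neuronal (14 of them described), 20 as muscle types, mostly of heart or skeletal muscle (12 described), and 44 fell in neither list (24 described). The lists were assigned by hand, and some genes could be placed otherwise. The vascular pore KCNJ8 is in the muscle list. KCNJ14, a neuronal rectifier, and KCNQ5, a channel of neurons and muscle, are in neither list. One matching name, KCNQ1DN, is a transcript that encodes no channel and is among the 46.

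RNA was sequenced from Rh30 cells, an established human cell line of alveolar rhabdomyosarcoma with the PAX3-FOXO1 fusion gene, in 30 samples that form 15 groups of 2. In the time course, Rh30 cells in which PAX3-FOXO1 carries an FKBP degradation tag (the PAX3-FOXO1-FKBP line) were held in 500 nM dTAG for 2, 6, 24 or 72 h, with the same line in DMSO as baseline. A second line, with the tag on FOXO1 (the FOXO1-FKBP line), received the same series. The other 10 libraries came from PAX3-FOXO1-FKBP clones 4, 10, 11 and 12, each a single clone, and from parental Rh30 cells without a tag, 2 libraries each. All of these 10 are labelled DMSO, and none received dTAG. The dTAG molecule joins the tagged protein to a ubiquitin ligase, which marks the protein for breakdown. No protein was measured, and an mRNA count does not check the loss of a tagged protein. The sources used here do not say whether the time-course line is 1 of the 4 clones.

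Potassium channels let potassium ions leave the cell down their gradient and so pull the membrane towards its resting voltage. Voltage-gated channels (Kv, EAG and ERG families) open on depolarisation and end the action potential. Inward rectifiers (Kir) and two-pore-domain channels (K2P) hold the resting potential, and calcium-activated or sodium-activated channels open as those ions enter. Accessory subunits (KChIP, Kv beta, BK beta) set where and how fast the pores work. In human myoblasts a hyperpolarising potassium current, carried first by the EAG channel KCNH1 and then by the Kir channel KCNJ2, precedes fusion into myotubes. Many other members are best known from neurons or from the heart.

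Values are counts scaled by TMM factors (normalised counts), and time-course values stand in the order DMSO, 2, 6, 24 and 72 h. The clone table and the time-course tables were scaled separately, so levels in them are not on a common scale. The time-course tables hold 1 column for the 2 samples of a condition. How the 2 were combined is not stated, the columns are treated as pooled, and a single time point has no replicate error. Column totals were 25863451 to 30466960 in the time course and 17746684 to 26834005 in the clone table. Of 12 skeletal muscle markers, 11 had at least 10 counts in every column and MYF5 was at 0 in every column. Of 10 neuronal markers, 3 or 4 had at least 10 counts in any column. The 2 h column of the PAX3-FOXO1-FKBP line stood apart: all 10 B lineage markers had at least 10 counts there, against 1 to 4 of 10 in the other 19 columns. Their sum was 3800 there, and 390 to 3582 in the other columns. In every column most of that sum was FCRLA, at 2347 in the 2 h column and 363 to 3356 in the others. CD79A, CD79B and PAX5 had reads in other columns too. IGJ (349), POU2AF1 (259) and CD74 (246) stood high in the 2 h column, and none of these passed 10.44 elsewhere. MS4A1, the CD20 antigen of B cells, was at 206 normalised counts in the 2 h column and at 0 in the line's 4 other columns. Of the 2 potassium channels typical of lymphocytes, KCNA3 was at 0 in every column of the series. KCNN4 read 37.2, 20.4, 32.7, 21.9 and 24.7 in the PAX3-FOXO1-FKBP line and 20.9, 15.4, 24.04, 14.9 and 23.8 in the FOXO1-FKBP line. Its value in the 2 h column was thus the lowest of its line. KCNQ5, a slow neuronal and muscle Kv channel, had 9.84 normalised counts in the 2 h column of the PAX3-FOXO1-FKBP line and 0 in that line's other columns. Whether RNA of other cells in that column bears on its channel values was not tested, and trend results are given with and without it. In bulk RNA, fewer cells of a type and less RNA per cell cannot be told apart.

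In untreated cells the modifier KCNS3 had the highest level per length in both lines. Dividing the normalised count in DMSO by the longest coding transcript of the gene gave KCNS3, a subunit that is silent alone and modifies Kv2 channels, 986 counts per kb in the PAX3-FOXO1-FKBP line and 791 in the FOXO1-FKBP line. Next in the PAX3-FOXO1-FKBP line were KCNG1 (234 per kb), KCNMB4 (224), KCNN3 (168), KCNC1 (131), KCNIP1 (110), KCNJ11 (97.9), KCNK5 (95.8), KCNH2 (94.0) and KCNJ4 (89.8). In the FOXO1-FKBP line the order ran KCNS3, KCNH2 (377 per kb), KCNJ11 (182), KCNN3 (156), KCNMB4 (145), KCNC1 (120), KCNG1 (85.6) and KCNK5 (54.3). Muscle-type and neuronal members thus stood side by side among the highest in both lines. With 1 column per line, the order of neighbouring genes has no error attached. Between the untreated lines, KCNIP1 differed the most, with 247 normalised counts in the PAX3-FOXO1-FKBP line and 1.44 in the FOXO1-FKBP line, a log2 difference of 6.18. KCNJ4 (3.32), KCNK13 (2.65), KCNT1 (2.63), KCND3 (2.39), KCNJ12 (2.35) and KCNAB2 (2.24) also had large log2 differences in the same direction. KCNJ8 (-2.38) and KCNH2 (-2.0) had the largest in the other direction. These are single columns of separately derived lines, with no test.

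**Figure D1:**
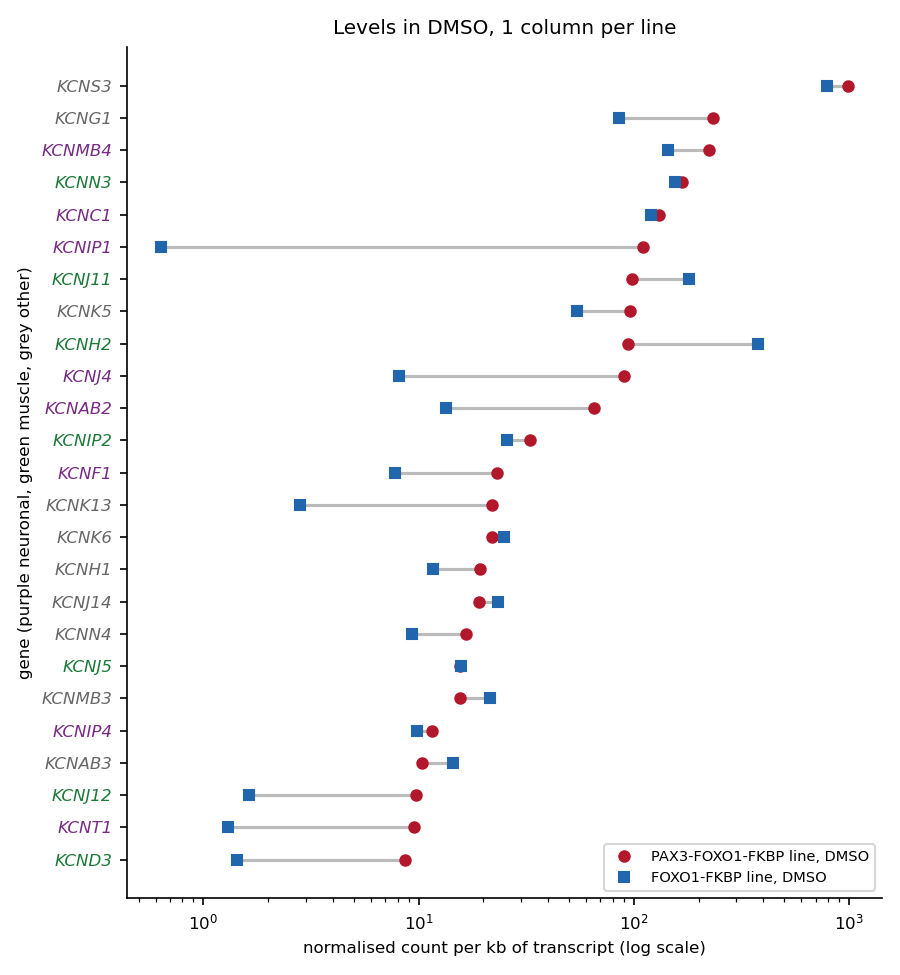
Normalised count per kb of transcript in DMSO (log axis) for 25 potassium channel genes with high levels in the PAX3-FOXO1-FKBP line (circles), beside the FOXO1-FKBP line (squares); each point is the 1 column of a condition. KCNS3 stands highest in both lines, at 986 and 791 per kb, and KCNIP1 is the gene furthest apart between them.

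The time course asks which channel genes moved after dTAG was given to cells with tagged PAX3-FOXO1. Over the hours of dTAG, KCNC4 and KCNH2 rose and KCNIP1 fell in the PAX3-FOXO1-FKBP line, by a straight-line trend on log2 of hours plus 1 (edgeR quasi-likelihood test, adjusted p under 0.05 over all genes). These were 2 members higher and 1 lower of 36 whose normalised counts averaged at least 10 in that line. Over all 14033 genes tested, 2.28% were called higher, 2.14% lower and 4.42% in either direction, so the members' counts stand near the share of all genes. At an unadjusted p under 0.05, 13 of the 36 passed, beside 2402 of the 14033 genes. With 3 residual degrees of freedom, the p-value measures the scatter of 5 columns round a line, not replicate error.

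KCNC4, which encodes the fast-inactivating Kv3.4 pore of skeletal muscle and neurons, read 32.6, 47.8, 52.9, 106 and 127 in the PAX3-FOXO1-FKBP line and 11.9, 15.5, 15.4, 19.3 and 12.3 in the FOXO1-FKBP line. Its log2 changes from DMSO in the PAX3-FOXO1-FKBP line were 0.53, 0.67, 1.65 and 1.89 at 2, 6, 24 and 72 h, with a slope of 0.33 per doubling of hours plus 1 (SE 0.049, edgeR adjusted p = 0.0114). Every dTAG column of that line was above its DMSO column, and in the FOXO1-FKBP line no column reached 20 counts. KCNE3, the small subunit that pairs with Kv3.4 in skeletal muscle, stayed below 10 counts in every column.

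KCNH2, the hERG channel whose current repolarises the heart, read 403, 338, 659, 962 and 947 in the PAX3-FOXO1-FKBP line and 1618, 1518, 1571, 2146 and 1857 in the FOXO1-FKBP line. In the PAX3-FOXO1-FKBP line the log2 changes were -0.25, 0.71, 1.25 and 1.23, with a slope of 0.25 (SE 0.049, adjusted p = 0.0326). Even its highest column in that line, 962 at 24 h, lay below every column of the FOXO1-FKBP line.

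KCNIP1 encodes KChIP1, a calcium sensor that carries Kv4 pores to the surface of neurons. It read 247, 208, 107, 50.2 and 65.4 in the PAX3-FOXO1-FKBP line and 1.44, 1.14, 1.86, 0 and 0.654 in the FOXO1-FKBP line. The log2 changes in the PAX3-FOXO1-FKBP line were -0.24, -1.19, -2.25 and -1.89, with a slope of -0.38 (SE 0.064, adjusted p = 0.0193). The 24 h column was the lowest and the 72 h column second lowest. In the FOXO1-FKBP line KCNIP1 never passed 1.86 normalised counts, so its response there was not measurable at this depth.

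Without the 2 h column all 3 genes kept their calls, with adjusted p of 0.0147 for KCNC4, 0.0138 for KCNH2 and 0.0146 for KCNIP1. Without the 72 h column none did, with adjusted p of 0.104 for KCNC4, 0.134 for KCNH2 and 0.0519 for KCNIP1, although their slopes were then 0.36, 0.30 and -0.51. Skeletal muscle marker RNA rose in sum over the same columns. The 12 markers summed to 124300, 155000, 164400, 221600 and 339100 in the PAX3-FOXO1-FKBP line, and to between 113400 and 127700 in the FOXO1-FKBP line. In the PAX3-FOXO1-FKBP line ACTC1 went from 25320 in DMSO to 125300 at 72 h. MYOD1 fell from 43040 to 26490, and TTN read 4380 in DMSO, 2014 at 6 h and 4240 at 72 h. MYF5 was at 0, and the other markers were higher at 72 h than in DMSO. The 10 neuronal markers summed to 2629, 2641, 2878, 2946 and 4208 in the PAX3-FOXO1-FKBP line. Most of that sum was TUBB3 (839 in DMSO, 2170 at 72 h) and MAP2 (1733 in DMSO, 1207 at 6 h, 1968 at 72 h). SYP read 16.6 in DMSO and 31.2 at 72 h, and RBFOX3 38.5 and 38.0. ELAVL3 never passed 1.66 and NEFL 0.517 in that line, and ELAVL4, SNAP25, STMN2 and NEFM were at 0 in each of its columns. The part of either marker list in the channel results was not tested.

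The promoter windows of the 3 called genes are shown because these are the members that the edgeR trend called. Each runs from 250 bases before to 50 bases after the annotated start (RefSeq, GRCh38.p14), 5′ to 3′ on the gene's strand. Capitals mark matches to the motifs searched. The windows are chr1:110210064-110210363 on the plus strand for KCNC4, chr7:150978272-150978571 on the minus strand for KCNH2 and chr5:170353237-170353536 on the plus strand for KCNIP1. RefSeq lists 5 windows for KCNH2 and 2 for KCNIP1, and the first listed is shown.
KCNC4: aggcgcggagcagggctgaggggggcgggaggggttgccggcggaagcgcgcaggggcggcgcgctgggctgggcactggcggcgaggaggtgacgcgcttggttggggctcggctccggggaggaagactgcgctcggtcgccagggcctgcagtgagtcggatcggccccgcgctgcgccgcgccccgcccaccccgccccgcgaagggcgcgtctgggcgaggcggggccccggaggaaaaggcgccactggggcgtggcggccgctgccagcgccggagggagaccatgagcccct
KCNH2: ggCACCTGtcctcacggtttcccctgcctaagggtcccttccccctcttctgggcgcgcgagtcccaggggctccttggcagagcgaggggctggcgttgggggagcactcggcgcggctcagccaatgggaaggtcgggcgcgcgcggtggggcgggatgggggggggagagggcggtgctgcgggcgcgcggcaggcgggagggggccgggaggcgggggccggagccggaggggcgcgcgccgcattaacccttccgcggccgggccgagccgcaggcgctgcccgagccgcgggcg
KCNIP1: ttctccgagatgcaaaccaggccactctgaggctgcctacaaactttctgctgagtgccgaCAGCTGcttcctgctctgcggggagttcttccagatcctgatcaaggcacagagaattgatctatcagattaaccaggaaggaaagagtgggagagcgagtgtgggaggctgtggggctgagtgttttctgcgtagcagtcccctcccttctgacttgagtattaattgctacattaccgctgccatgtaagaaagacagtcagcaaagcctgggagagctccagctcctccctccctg
Searched on both strands were CAGCTG and CAGGTG (read CACCTG on the other strand), which are E-boxes of the kind bound by myogenic bHLH factors. The KCNH2 window holds 1 CACCTG, the KCNIP1 window 1 CAGCTG, and the KCNC4 window neither motif. Among 35116 RefSeq promoter windows of this length, 17.9% hold CAGCTG and 20.6% CAGGTG. Of 63 windows of the described channel genes, 15 (23.8%) hold CAGCTG and 16 (25.4%) CAGGTG. A match is a run of letters, not a binding site.

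**Figure D2:**
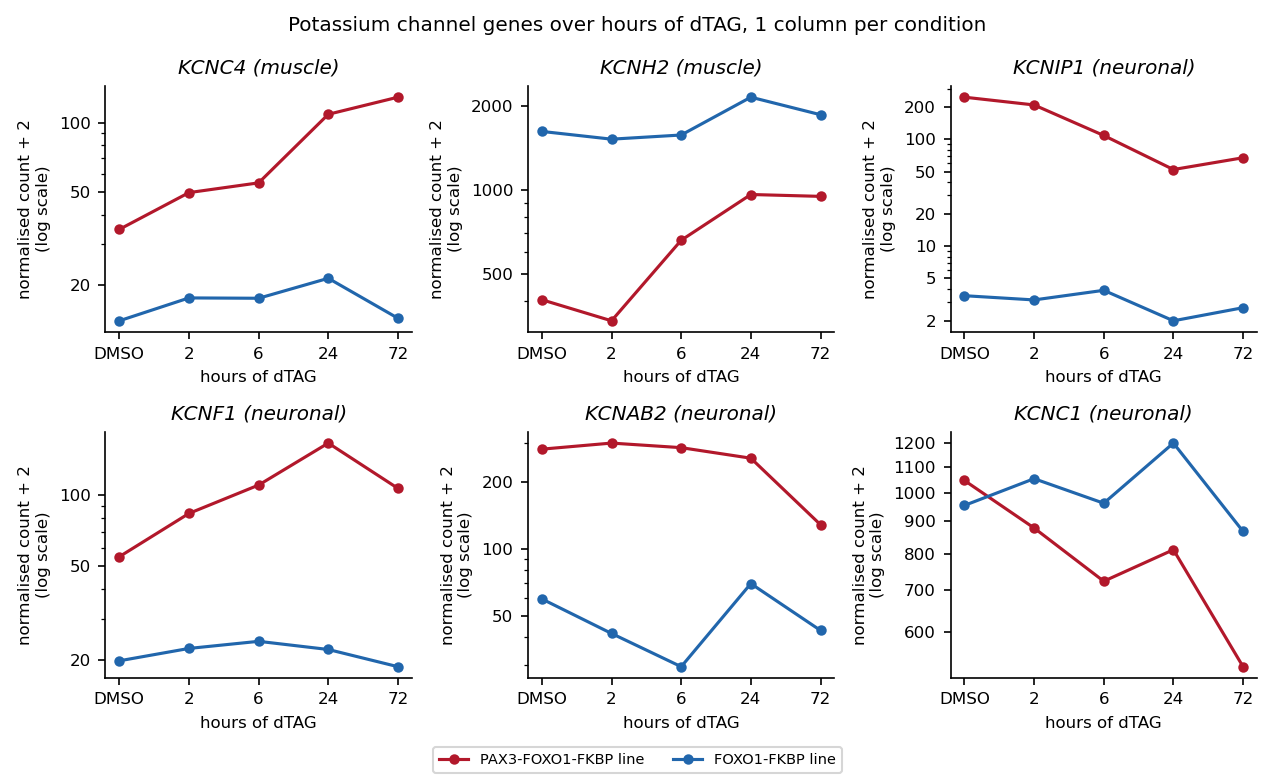
Normalised count plus 2 (log axis) against hours of dTAG, with DMSO at the left, in the PAX3-FOXO1-FKBP line (red) and the FOXO1-FKBP line (blue); each point is the 1 column of a condition. KCNC4 reached 127 and KCNIP1 65.4 normalised counts at 72 h in the PAX3-FOXO1-FKBP line, and KCNF1 peaked at 164 at 24 h.

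Size alone was counted next. Among 21 members with a mean of at least 50 normalised counts in the PAX3-FOXO1-FKBP line, none was 2-fold or more from DMSO at 2 h, where 0.629% of all genes were. At 6 h there were 2 such members (9.52%; KCNF1 higher, KCNIP1 lower) beside 1.8% of all genes, and at 24 h 4 (19%; KCNC4, KCNH2 and KCNF1 higher, KCNIP1 lower) beside 3.07%. At 72 h there were also 4 (19%; KCNC4 and KCNH2 higher, KCNIP1 and KCNAB2 lower) beside 6.3%. With the minimum mean lowered to 10, the members past 2-fold were 7 of 36 at 6 h and 9 of 36 at 72 h. The share of all genes at that lower minimum is not given here, so these counts cannot be set against it. KCNF1, a silent neuronal subunit that modifies Kv2 channels, read 52.9, 81.7, 108, 164 and 105 in the PAX3-FOXO1-FKBP line and 17.9, 20.4, 22.03, 20.2 and 16.8 in the FOXO1-FKBP line. Its 24 h column in the PAX3-FOXO1-FKBP line was the highest, a log2 change of 1.60, and the trend did not pass (adjusted p = 0.219). KCNAB2, the Kv beta 2 subunit that attaches to Kv1 pores, read 279, 298, 284, 254 and 126 in the PAX3-FOXO1-FKBP line and 57.5, 39.6, 27.4, 67.8 and 40.9 in the FOXO1-FKBP line. It passed 2-fold at 72 h, at a log2 change of -1.13, and stood at -0.99 after correction for GC content and transcript length. KCNC1 lay just outside the limit at 72 h, at a log2 change of -0.99. In the FOXO1-FKBP line, 0 of 14 members with a mean of at least 50 were 2-fold from DMSO at any time, beside 0.0829%, 0.058%, 0.207% and 0.464% of all genes at 2, 6, 24 and 72 h.

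In the FOXO1-FKBP line the edgeR trend called 0 of 32 members and 0 of 13804 genes (0.0%). At an unadjusted p under 0.05 there were 0 members and 616 genes, and DESeq2 likewise called 0 members. The difference in slope between the lines, tested directly in edgeR, called 0 of 37 members, beside 2.05% of 14029 genes. At an unadjusted p under 0.05 it passed for 7 of the 37 members, beside 1784 of the 14029 genes, and DESeq2 called 0 members. A trend called in 1 line and not in the other is therefore not shown to differ between them for KCNC4 (adjusted p of the difference 0.11) or KCNH2 (0.19).

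The neuronal and muscle lists did not separate by direction. At 72 h in the PAX3-FOXO1-FKBP line, 7 of 11 neuronal members tested were above DMSO and 4 below, with a median log2 change of 0.35 and a range of -1.89 to 0.96. For 9 muscle-type members the split was 4 above and 5 below, with a median of -0.09 and a range of -1.0 to 2.25. Over all 14030 genes the median was -0.01. At 24 h the medians were 0.06 for neuronal and -0.14 for muscle-type members, and in the FOXO1-FKBP line at 72 h they were -0.11 (8 members) and 0.03 (10 members). The muscle-type member with the largest change at 72 h was KCNA7, the Kv1.7 pore of heart and skeletal muscle, at 6.31, 14.6, 28.4, 12.9 and 37.6 in the PAX3-FOXO1-FKBP line (adjusted p = 0.255). KCNC4 and KCNH2, both of the muscle list, and KCNIP1, of the neuronal list, were the only members that passed the test.

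**Figure D3:**
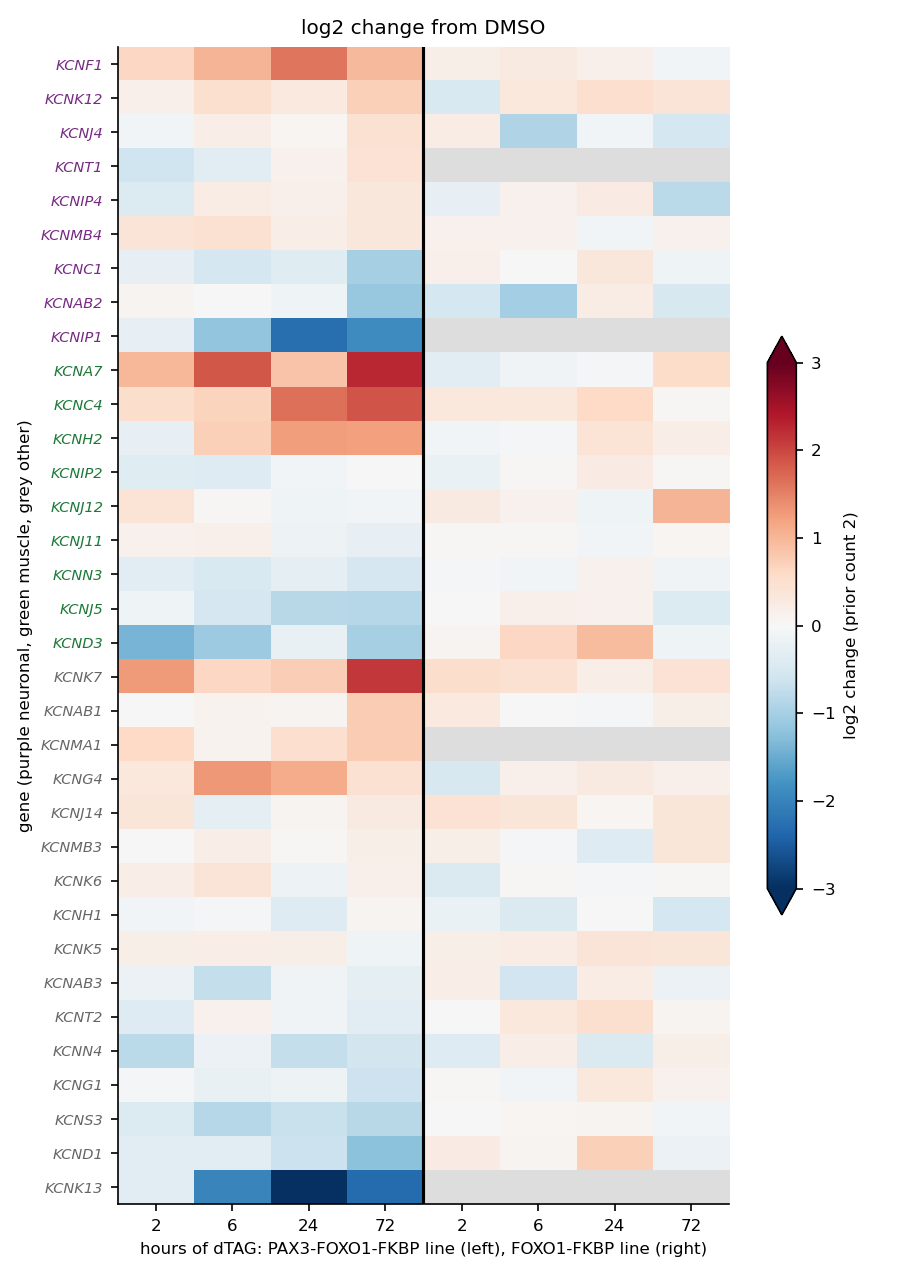
Log2 change from DMSO (colour) at 2, 6, 24 and 72 h of dTAG for 34 of the potassium channel genes tested in the PAX3-FOXO1-FKBP line (left) and for the same genes in the FOXO1-FKBP line (right; grey where the gene was below the minimum there), with neuronal, muscle and other genes in purple, green and grey. Changes of both signs occur in each list, and KCNK13 has the lowest value, -3.44 at 24 h in the PAX3-FOXO1-FKBP line.

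The clone table asks how each tagged clone, without dTAG, differs from parental cells. Channel genes differed from parental Rh30 cells in every clone, but seldom in the same direction in all of them. Of 39 members that passed the filter, edgeR (adjusted p under 0.05 over 14175 genes) called 8 higher and 15 lower for clone 4, 14 and 7 for clone 10, 8 and 10 for clone 11, and 10 and 9 for clone 12. Over all genes the calls were 25.1% higher and 22.3% lower for clone 4, 27.8% and 24.2% for clone 10, 26.5% and 25.1% for clone 11, and 27.8% and 24.7% for clone 12. A call in 1 or more clones was reached by 35 of the 39 members (89.7%), beside 84.8% of all genes. Opposite calls in different clones were found for 10 members (25.6%), beside 7.24% of all genes. Among these were KCNAB2, KCNH1, KCNH2, KCNIP1, KCNK12, KCNMA1, KCNMB4, KCNN4 and KCNS3. For each gene named, the higher calls, the lower calls or both did not hold when 1 library was left out. How often that is so over all genes is not given here, so the excess over their share is not secure. Only KCNIP2, KCNJ2 and KCNT2 fell in all 4 clones (7.69% of members, beside 9.5% of all genes). Of genes higher in all 4 (8.4% of all genes), KCNJ12 was the single member.

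By list, clone 10 called 8 of 12 neuronal members higher and 0 lower, and 3 of 11 muscle-type members higher and 3 lower. Neuronal members were called 3 higher and 5 lower for clone 4, 3 and 3 for clone 11, and 3 and 2 for clone 12. Muscle-type members were called 2 higher and 3 lower for clone 4, 4 and 3 for clone 11, and 3 and 4 for clone 12. Whether the lists differ within a clone was not tested. Skeletal muscle marker RNA summed to between 138900 and 190600 in the 8 clone libraries, against 81910 and 83520 in parental libraries. MYOD1, MYOG, DES, TNNT2, ACTC1 and MYH8 were above both parental libraries in every clone library. TNNT1, MYH3, CKM, MB and TTN were below both in some clone libraries, and MYF5 was at 0. CKM, for example, read 63.05 and 63.23 in clone 10, against 245.8 and 221.7 in parental libraries. The 10 neuronal markers summed to 1180 to 5655 in the clones, against 1734 and 1667 in parental libraries. Their part in the channel differences was not tested.

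The 2 parental libraries agreed closely, with a chi-square per degree of freedom of 1.84 over genes, against 14.0 to 51.3 for the pairs of clone libraries. The labels do not say whether the 2 libraries of a group are separate cultures, and p-values therefore cover only the spread of these libraries, which may be technical. Of 81 calls over the 4 clones, 41 held whichever of the 10 libraries was left out, and 22 genes had such a call. The counts moved without parental library 1 or 2: clone 4 then had 8 or 7 lower calls and clone 10 had 8 or 8 higher calls. They also moved without clone 4 library 1 (8 lower), clone 10 library 1 (7 higher), parental library 1 (5 higher in clone 11), clone 11 library 1 (13 higher) or 2 (4 higher), parental library 2 (6 higher in clone 12), and clone 12 library b (5 higher). In the accounts of single genes, each call that did not hold carries its highest adjusted p with 1 library left out ("highest"). Where a group has no reads, the fitted log2 change depends on the prior count, and a bound from 3 counts per library stands beside it.

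**Figure D4:**
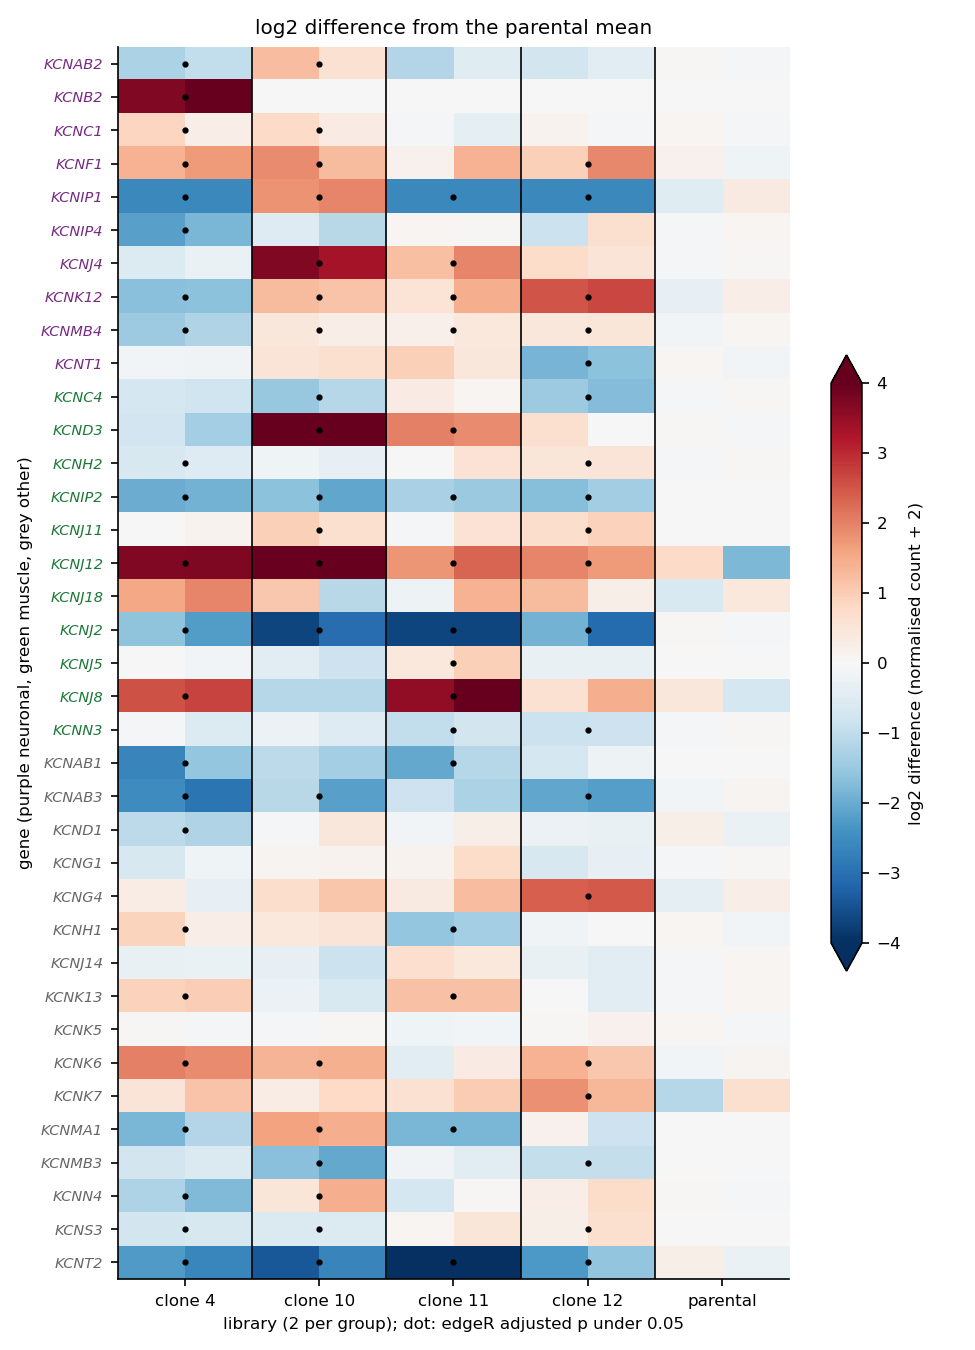
Log2 difference of each library from the parental mean (normalised count plus 2) for 37 of the 39 potassium channel genes tested, with clones 4, 10, 11 and 12 left of the parental libraries; a dot marks an edgeR adjusted p under 0.05 for that clone. KCND3, KCNJ4 and KCNJ12 are highest in clone 10, KCNB2 is at 0 outside clone 4, and KCNT2 and KCNJ2 are low in all 4 clones.

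Among delayed-rectifier pores, KCNB2, the Kv2.2 pore, had 24.2 and 30.6 (clone 4), 0 and 0 (clone 10), 0 and 0 (clone 11), 0 and 0 (clone 12), against 0 and 0 in parental cells. KCNB2 rose in clone 4 (log2 7.82, adjusted p = 0.000842), the one group with reads, and was there at least 11.6-fold higher, taking 3 counts per library as the floor of the parental libraries. In the time course it never exceeded 0.569 normalised counts.

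The Kv3 genes carry the fast delayed rectifiers of rapidly firing neurons. KCNC1 (Kv3.1) had 1085 and 711 (clone 4), 1021 and 745 (clone 10), 578 and 461 (clone 11), 662 and 566 (clone 12), against 628 and 559.8 in parental cells. KCNC1 rose in clone 4 (log2 0.67, adjusted p = 0.0307, highest 0.323) and clone 10 (log2 0.64, adjusted p = 0.0322, highest 0.241). KCNC1 read 1044, 877, 721, 809 and 526 in the PAX3-FOXO1-FKBP line and 952, 1051, 960.2, 1198 and 866 in the FOXO1-FKBP line in the time course (adjusted p = 0.0752). KCNC4 (Kv3.4) had 42.1 and 39.6 (clone 4), 23.1 and 30.5 (clone 10), 88.5 and 73.1 (clone 11), 24.1 and 19.5 (clone 12), against 67.03 and 72.1 in parental cells. KCNC4 fell in clone 10 (log2 -1.31, adjusted p = 0.00275) and clone 12 (log2 -1.61, adjusted p = 0.00106), while both clone 11 libraries lay above both parental ones without passing the test.

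The Kv4 pores give the transient outward current that heart and neurons use to delay firing. KCND3 (Kv4.3), the main Kv4 pore of human heart, had 1.05 and 0 (clone 4), 96.8 and 100.3 (clone 10), 19.1 and 16.96 (clone 11), 6.01 and 3.07 (clone 12), against 3.31 and 3.01 in parental cells. KCND3 rose in clone 10 (log2 4.98, adjusted p = 2.4e-05) and clone 11 (log2 2.55, adjusted p = 0.00157), and the 2 clone 10 libraries stood clear of all 8 others. In the time course it read 64.1, 23.3, 28.8, 54.5 and 30.96 in the PAX3-FOXO1-FKBP line and 10.6, 11.3, 17.5, 22.1 and 9.55 in the FOXO1-FKBP line. KCND1 (Kv4.1) had 5.26 and 4.53 (clone 4), 12.4 and 18.5 (clone 10), 12.1 and 15.7 (clone 11), 10.8 and 10.2 (clone 12), against 15.7 and 10.5 in parental cells. KCND1 fell in clone 4 (log2 -1.32, adjusted p = 0.0485, highest 0.268) and read 35.9, 28.4, 28.3, 22.3 and 14.3 in the PAX3-FOXO1-FKBP line and 16.6, 20.1, 17.7, 28.4 and 14.3 in the FOXO1-FKBP line over time.

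Silent subunits form no channel alone and modify Kv2. KCNS3 had 1097 and 1168 (clone 4), 1224 and 1239 (clone 10), 1916 and 2558 (clone 11), 2130 and 2867 (clone 12), against 1786 and 1864 in parental cells. KCNS3 fell in clone 4 (log2 -0.62, adjusted p = 0.0117, highest 0.0663) and clone 10 (log2 -0.49, adjusted p = 0.0296, highest 0.121) and rose in clone 12 (log2 0.52, adjusted p = 0.0232, highest 0.357). Over time it read 2363, 1787, 1313, 1481 and 1319 in the PAX3-FOXO1-FKBP line and 1896, 1890, 1968, 2018 and 1777 in the FOXO1-FKBP line, below DMSO in every dTAG column of the PAX3-FOXO1-FKBP line (adjusted p = 0.0939). KCNF1 had 50.5 and 64.5 (clone 4), 72.8 and 46.9 (clone 10), 20.8 and 50.9 (clone 11), 37.3 and 74.8 (clone 12), against 20.7 and 15.8 in parental cells. KCNF1 rose in clone 4 (log2 1.72, adjusted p = 0.012, highest 0.0863), clone 10 (log2 1.79, adjusted p = 0.00844, highest 0.0704) and clone 12 (log2 1.69, adjusted p = 0.0116, highest 0.165), and both clone 11 libraries lay above both parental ones without passing the test. KCNG1 (Kv6.1) was called in no clone, with 223 and 312 (clone 4), 376 and 382 (clone 10), 385 and 581 (clone 11), 224 and 277 (clone 12), against 334 and 364 in parental cells. Over time KCNG1 read 517, 497, 443, 468 and 333 in the PAX3-FOXO1-FKBP line and 189, 193, 178, 235 and 207 in the FOXO1-FKBP line. KCNG4 (Kv6.4) had 11.6 and 6.79 (clone 4), 15.98 and 21.8 (clone 10), 12.1 and 23.5 (clone 11), 55.3 and 58.4 (clone 12), against 6.62 and 11.3 in parental cells. KCNG4 rose in clone 12 (log2 2.71, adjusted p = 0.000506) and read 6.505, 8.67, 19.1, 16.4 and 9.62 in the PAX3-FOXO1-FKBP line and 19.5, 13.4, 21.9, 24.1 and 21.8 in the FOXO1-FKBP line over time.

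Among the EAG and ERG pores, KCNH1 (EAG1), the early hyperpolarising channel of human myoblasts, had 228 and 148 (clone 4), 165 and 176 (clone 10), 40.8 and 46.98 (clone 11), 111 and 124 (clone 12), against 132 and 115 in parental cells. KCNH1 rose in clone 4 (log2 0.68, adjusted p = 0.0305, highest 0.338) and fell in clone 11 (log2 -1.43, adjusted p = 0.00112). Over time it read 157, 149, 153, 119 and 168 in the PAX3-FOXO1-FKBP line and 95.5, 82.3, 69.6, 96.2 and 65.6 in the FOXO1-FKBP line. KCNH2 had 384 and 419 (clone 4), 534 and 478 (clone 10), 604 and 894 (clone 11), 838 and 862 (clone 12), against 579 and 613 in parental cells. KCNH2 fell in clone 4 (log2 -0.50, adjusted p = 0.0379, highest 0.155) and rose in clone 12 (log2 0.58, adjusted p = 0.0177, highest 0.11), both by less than 1.5-fold.

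Inward rectifiers moved in both directions. KCNJ2 (Kir2.1), the rectifier of heart and muscle that takes over before myoblast fusion, had 6.31 and 3.396 (clone 4), 0 and 1.09 (clone 10), 0 and 0 (clone 11), 4.81 and 1.02 (clone 12), against 24.0 and 22.5 in parental cells. KCNJ2 fell in clone 4 (log2 -2.15, adjusted p = 0.0131, highest 0.0694), clone 10 (log2 -5.18, adjusted p = 0.000913), clone 11 (log2 -7.52, adjusted p = 0.000644) and clone 12 (log2 -2.94, adjusted p = 0.00425). In clone 11, with no reads, it was at least 7.14-fold lower, and in clone 10, with 1 read, the ratio was 0.0211 (exact counting interval 0.000524 to 0.122). Its antisense gene KCNJ2-AS1 may share reads with it, because the strand setting of the counts is unknown here. In the time course KCNJ2 stayed at 5.83 normalised counts or fewer.

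KCNJ4 (Kir2.3), a rectifier of neurons and heart listed as neuronal, had 5.26 and 6.79 (clone 4), 138 and 105 (clone 10), 22.6 and 39.1 (clone 11), 15.6 and 13.3 (clone 12), against 8.28 and 9.02 in parental cells. KCNJ4 rose in clone 10 (log2 3.86, adjusted p = 3.88e-05) and clone 11 (log2 1.86, adjusted p = 0.00271). In the time course it read 185, 176, 214, 194 and 256 in the PAX3-FOXO1-FKBP line and 16.8, 19.9, 8.01, 15.8 and 11.1 in the FOXO1-FKBP line. The clone 10 libraries and the PAX3-FOXO1-FKBP time-course columns all stood above 100, and no other column passed 40. Clone and time-course values were scaled separately, so these levels are not on a common scale. KCNJ12 (Kir2.2) had 89.5 and 90.6 (clone 4), 107 and 153 (clone 10), 21.7 and 32.6 (clone 11), 25.3 and 20.5 (clone 12), against 9.93 and 0 in parental cells. It was called higher in clone 4 (log2 4.27, adjusted p = 0.000545), clone 10 (log2 4.79, adjusted p = 0.000226), clone 11 (log2 2.52, adjusted p = 0.0139, highest 0.0919) and clone 12 (log2 2.28, adjusted p = 0.0238, highest 0.101). Its value is uncertain, since the near-identical KCNJ18 can take its reads and the 2 parental libraries differed. KCNJ18 itself was called in no clone, and KCNJ12 read 53.1, 70.8, 54.1, 48.1 and 49.6 in the PAX3-FOXO1-FKBP line and 8.83, 11.1, 9.76, 7.93 and 20.02 in the FOXO1-FKBP line over time.

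The ATP-sensitive pores couple metabolism to voltage in muscle. KCNJ11 (Kir6.2), the pore of heart and skeletal muscle, had 145 and 159.6 (clone 4), 282 and 226 (clone 10), 140.5 and 215 (clone 11), 236 and 276 (clone 12), against 142 and 145 in parental cells. KCNJ11 rose in clone 10 (log2 0.90, adjusted p = 0.0059, highest 0.0543) and clone 12 (log2 0.90, adjusted p = 0.00585, highest 0.063). Its columns over time read 274, 298, 307, 245 and 229.5 in the PAX3-FOXO1-FKBP line and 508, 524, 520.4, 478 and 532 in the FOXO1-FKBP line, with no column 2-fold from DMSO. KCNJ8 (Kir6.1), the vascular pore, had 24.2 and 27.2 (clone 4), 0 and 0 (clone 10), 49.4 and 74.4 (clone 11), 4.81 and 10.2 (clone 12), against 4.14 and 0.751 in parental cells. KCNJ8 rose in clone 4 (log2 3.43, adjusted p = 0.0018) and clone 11 (log2 4.69, adjusted p = 0.000236), while clone 10 had no reads in either library. Over time it read 8.16, 8.902, 7.99, 5.09 and 4.09 in the PAX3-FOXO1-FKBP line and 50.99, 32.7, 49.1, 59.2 and 47.5 in the FOXO1-FKBP line. KCNJ5 (GIRK4), a G-protein-gated pore of the heart atrium, had 89.5 and 84.9 (clone 4), 66.6 and 50.1 (clone 10), 122 and 178 (clone 11), 74.6 and 74.8 (clone 12), against 91.03 and 91.7 in parental cells. KCNJ5 rose in clone 11 (log2 0.77, adjusted p = 0.0175, highest 0.187).

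Two-pore-domain leak channels differed in how far clones departed from parental cells. KCNK5 (TASK-2), which opens at alkaline pH, was called in no clone, with 377 and 338 (clone 4), 340.1 and 375 (clone 10), 318 and 338 (clone 11), 375 and 406 (clone 12), against 378 and 344 in parental cells. Over time KCNK5 read 359.9, 404, 415, 405 and 331 in the PAX3-FOXO1-FKBP line and 204, 232, 237, 267 and 262 in the FOXO1-FKBP line. KCNK6 (TWIK-2) had 321 and 293 (clone 4), 202 and 213 (clone 10), 58.1 and 97.9 (clone 11), 206 and 166 (clone 12), against 71.99 and 83.4 in parental cells. KCNK6 rose in clone 4 (log2 2.05, adjusted p = 0.000125), clone 10 (log2 1.49, adjusted p = 0.000577) and clone 12 (log2 1.32, adjusted p = 0.00115), and clone 11 overlapped the parental libraries. Over time KCNK6 read 125, 144, 165, 113 and 138 in the PAX3-FOXO1-FKBP line and 142, 105, 145, 137 and 147 in the FOXO1-FKBP line.

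The 2 THIK genes were both called in clones 4 and 11, KCNK13 higher in each and KCNK12 lower in clone 4. KCNK13 (THIK-1), best known from microglia, had 137 and 143 (clone 4), 59.5 and 45.8 (clone 10), 164 and 163 (clone 11), 70.97 and 51.2 (clone 12), against 67.9 and 74.4 in parental cells. KCNK13 rose in clone 4 (log2 1.04, adjusted p = 0.00347) and clone 11 (log2 1.27, adjusted p = 0.000987). In the time course it read 55.3, 43.5, 12.4, 3.26 and 9.49 in the PAX3-FOXO1-FKBP line and 7.13, 2.27, 5.91, 5.21 and 5.83 in the FOXO1-FKBP line. Every dTAG column of the PAX3-FOXO1-FKBP line was below DMSO, down to 3.26 at 24 h, and its trend missed the threshold (adjusted p = 0.058), although DESeq2 called it (0.0146). KCNK12 (THIK-2), which gives little current when expressed alone, had 1.05 and 1.13 (clone 4), 21.3 and 19.6 (clone 10), 12.1 and 24.8 (clone 11), 54.1 and 60.4 (clone 12), against 5.79 and 9.77 in parental cells. KCNK12 fell in clone 4 (log2 -2.65, adjusted p = 0.0157, highest 0.101), at 1 read per library and a ratio of 0.139 (exact counting interval 0.0157 to 0.57). KCNK12 rose in clone 10 (log2 1.45, adjusted p = 0.018, highest 0.14), clone 11 (log2 1.24, adjusted p = 0.04, highest 0.331) and clone 12 (log2 2.92, adjusted p = 0.000296). Its columns over time read 11.3, 12.8, 16.8, 14.3 and 19.8 in the PAX3-FOXO1-FKBP line and 23.6, 16.7, 29.9, 34.1 and 31.7 in the FOXO1-FKBP line. KCNK7, a relative for which no current is known, had 9.47 and 15.8 (clone 4), 7.99 and 11.99 (clone 10), 10.4 and 14.3 (clone 11), 26.5 and 18.4 (clone 12), against 1.66 and 10.5 in parental cells. KCNK7 rose in clone 12 (log2 1.89, adjusted p = 0.0223, highest 0.153) and read 5.79, 16.8, 10.02, 10.98 and 32.2 in the PAX3-FOXO1-FKBP line and 20.9, 31.2, 29.6, 24.3 and 28.9 in the FOXO1-FKBP line over time.

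Of the calcium-activated channels, KCNN3 (SK3), a small-conductance channel found in neurons and in denervated or developing muscle, had 1319 and 936 (clone 4), 1150 and 953 (clone 10), 686 and 818 (clone 11), 753 and 769 (clone 12), against 1311 and 1417 in parental cells. KCNN3 fell in clone 11 (log2 -0.79, adjusted p = 0.00377) and clone 12 (log2 -0.78, adjusted p = 0.0041). Over time KCNN3 read 2198, 1724, 1590, 1802 and 1541 in the PAX3-FOXO1-FKBP line and 2034, 1967, 1935, 2234 and 1904 in the FOXO1-FKBP line. KCNMA1, the BK pore, had 0 and 1.13 (clone 4), 19.5 and 17.4 (clone 10), 0 and 0 (clone 11), 6.01 and 2.05 (clone 12), against 4.96 and 5.26 in parental cells. KCNMA1 fell in clone 4 (log2 -2.90, adjusted p = 0.042, highest 0.194), where 1 read gave a ratio of 0.106 (exact counting interval 0.00251 to 0.709). It also fell in clone 11 (log2 -5.36, adjusted p = 0.0111, highest 0.0567), where with no reads it was at least 1.57-fold lower. In clone 10 it rose (log2 1.90, adjusted p = 0.0134, highest 0.0879), and over time it read 21.6, 33.5, 23.3, 31.6 and 37.7 in the PAX3-FOXO1-FKBP line and 5.61, 1.71, 5.99, 4.76 and 2.68 in the FOXO1-FKBP line. KCNN4 (KCa3.1), the intermediate-conductance channel of lymphocytes and red cells, had 4.21 and 2.26 (clone 4), 18.6 and 38.1 (clone 10), 6.94 and 13.1 (clone 11), 15.6 and 22.5 (clone 12), against 13.2 and 12.02 in parental cells. KCNN4 fell in clone 4 (log2 -1.84, adjusted p = 0.0361, highest 0.147) and rose in clone 10 (log2 1.22, adjusted p = 0.0433, highest 0.409).

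Of the sodium-activated pores, KCNT2 was called lower in all 4 clones and KCNT1 in clone 12. KCNT2 (Slick) had 6.31 and 4.53 (clone 4), 1.78 and 4.36 (clone 10), 0 and 0 (clone 11), 6.01 and 11.3 (clone 12), against 44.7 and 30.8 in parental cells. KCNT2 fell in clone 4 (log2 -2.70, adjusted p = 0.00208), clone 10 (log2 -3.55, adjusted p = 0.000667), clone 11 (log2 -8.21, adjusted p = 0.000209) and clone 12 (log2 -2.02, adjusted p = 0.00524, highest 0.0537). In clone 11, with no reads, it was at least 11.6-fold lower. Over time it read 45.7, 34.8, 49.8, 42.4 and 35.8 in the PAX3-FOXO1-FKBP line and 42.5, 42.2, 53.6, 60.3 and 45.03 in the FOXO1-FKBP line. KCNT1 (Slack), a neuronal pore, had 12.6 and 12.4 (clone 4), 20.4 and 22.9 (clone 10), 28.6 and 19.6 (clone 11), 2.41 and 3.07 (clone 12), against 14.9 and 12.8 in parental cells. KCNT1 fell in clone 12 (log2 -2.21, adjusted p = 0.005) and read 67.6, 43.8, 52.95, 74.2 and 92.3 in the PAX3-FOXO1-FKBP line and 9.22, 3.35, 4.21, 5.65 and 2.95 in the FOXO1-FKBP line over time.

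Of the KChIP subunits, which bind Kv4 pores, KCNIP1 and KCNIP2 were called in all 4 clones and KCNIP4 in clone 4. KCNIP1 had 0 and 0 (clone 4), 39.96 and 44.7 (clone 10), 0 and 0 (clone 11), 0 and 0 (clone 12), against 6.62 and 13.5 in parental cells. KCNIP1 rose in clone 10 (log2 2.12, adjusted p = 0.00528, highest 0.0566). With no reads it was at least 3.07-fold lower in clone 4 (log2 -6.33, adjusted p = 0.0049), 3.09-fold lower in clone 11 (log2 -6.33, adjusted p = 0.00404) and 3.02-fold lower in clone 12 (log2 -6.33, adjusted p = 0.00437). Reads of the gene were thus found in clone 10, in parental cells and in the PAX3-FOXO1-FKBP time-course line, and at or near 0 elsewhere. KCNIP2 (KChIP2), the Kv4 partner that sets the transient current of the heart, had 9.47 and 10.2 (clone 4), 12.4 and 8.72 (clone 10), 16.5 and 14.3 (clone 11), 12.03 and 15.4 (clone 12), against 43.9 and 42.8 in parental cells. KCNIP2 fell in clone 4 (log2 -2.06, adjusted p = 0.00106), clone 10 (log2 -1.94, adjusted p = 0.0011), clone 11 (log2 -1.40, adjusted p = 0.00508) and clone 12 (log2 -1.58, adjusted p = 0.00303), and all 8 clone libraries were below both parental ones. Time-course columns of KCNIP2 read 81.6, 63.05, 61.6, 76.7 and 82.96 in the PAX3-FOXO1-FKBP line and 64.1, 55.7, 65.6, 75.8 and 65.3 in the FOXO1-FKBP line. KCNIP4 (KChIP4), a neuronal Kv4 partner, had 3.16 and 4.53 (clone 4), 14.2 and 8.72 (clone 10), 22.6 and 22.2 (clone 11), 10.8 and 33.8 (clone 12), against 19.9 and 22.5 in parental cells. KCNIP4 fell in clone 4 (log2 -2.37, adjusted p = 0.00982, highest 0.0522) and read 28.6, 21.2, 33.5, 31.9 and 37.01 in the PAX3-FOXO1-FKBP line and 24.5, 20.5, 26.8, 29.5 and 13.03 in the FOXO1-FKBP line over time.

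The Kv beta subunits bind Kv1 pores. KCNAB1 had 1.05 and 4.53 (clone 4), 7.104 and 5.45 (clone 10), 2.602 and 6.53 (clone 11), 9.62 and 14.3 (clone 12), against 16.6 and 17.3 in parental cells. KCNAB1 fell in clone 4 (log2 -2.51, adjusted p = 0.00731, highest 0.0579) and clone 11 (log2 -1.89, adjusted p = 0.0171, highest 0.125) and read 23.98, 23.98, 25.9, 25.4 and 42.04 in the PAX3-FOXO1-FKBP line and 19.8, 24.9, 20.1, 19.3 and 22.5 in the FOXO1-FKBP line over time. KCNAB2 had 31.6 and 38.5 (clone 4), 190 and 122 (clone 10), 33.8 and 56.1 (clone 11), 46.9 and 57.4 (clone 12), against 81.9 and 75.9 in parental cells. KCNAB2 fell in clone 4 (log2 -1.10, adjusted p = 0.0155, highest 0.0779) and rose in clone 10 (log2 1.06, adjusted p = 0.01, highest 0.121). KCNAB3 had 2.105 and 1.13 (clone 4), 8.88 and 3.27 (clone 10), 11.3 and 7.83 (clone 11), 3.61 and 3.07 (clone 12), against 19.9 and 23.3 in parental cells. KCNAB3 fell in clone 4 (log2 -3.56, adjusted p = 0.00115), clone 10 (log2 -1.69, adjusted p = 0.0124, highest 0.0949) and clone 12 (log2 -2.59, adjusted p = 0.00282). In clone 4 it rested on 3 reads, a ratio of 0.0755 (exact counting interval 0.0151 to 0.233). Over time KCNAB3 read 25.5, 22.4, 14.7, 23.5 and 20.8 in the PAX3-FOXO1-FKBP line and 35.6, 41.4, 23.1, 41.9 and 31.5 in the FOXO1-FKBP line.

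The BK beta subunits tune how BK responds to calcium. KCNMB4, the main one of brain, had 201 and 238 (clone 4), 753 and 668 (clone 10), 630.5 and 742 (clone 11), 747 and 776 (clone 12), against 513 and 586 in parental cells. KCNMB4 fell in clone 4 (log2 -1.26, adjusted p = 0.000193) and rose in clone 10 (log2 0.44, adjusted p = 0.0283, highest 0.206), clone 11 (log2 0.39, adjusted p = 0.0483, highest 0.35) and clone 12 (log2 0.54, adjusted p = 0.0118, highest 0.119), by less than 1.5-fold in the last 3. Time-course columns of KCNMB4 read 1058, 1383, 1450, 1207 and 1340 in the PAX3-FOXO1-FKBP line and 684, 754, 747, 650.5 and 751 in the FOXO1-FKBP line. KCNMB3 had 41.04 and 45.3 (clone 4), 20.4 and 15.3 (clone 10), 63.3 and 50.9 (clone 11), 34.9 and 34.8 (clone 12), against 69.5 and 69.1 in parental cells. KCNMB3 fell in clone 10 (log2 -1.87, adjusted p = 0.000471) and clone 12 (log2 -0.93, adjusted p = 0.0141, highest 0.0795), and read 113, 114, 130.5, 116 and 128 in the PAX3-FOXO1-FKBP line and 156, 175, 149.8, 119 and 200.1 in the FOXO1-FKBP line over time.

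The untreated clones were set beside the untreated time-course lines. Across the 50 described genes, the log2 difference of the PAX3-FOXO1-FKBP line over the FOXO1-FKBP line in DMSO correlated with that of clone 10 over parental cells at Pearson r = 0.51 (Spearman rho 0.41). For clones 4, 11 and 12 over parental cells r was -0.14, -0.14 and -0.24. The points are genes, which are not independent, the 4 clone contrasts share their parental libraries, and low counts weigh in each, so the values are a description with no p. Among the genes with large positive differences between the lines, KCNIP1, KCNJ4, KCND3, KCNJ12 and KCNAB2 were called higher in clone 10, and KCNK13 and KCNT1 were not called there. KCNC4, with a difference of 1.31 between the lines, was called lower in clone 10, and KCNJ12 was called higher in all 4 clones. KCNIP1 and KCNAB2 were called lower in clone 4.

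**Figure D5:**
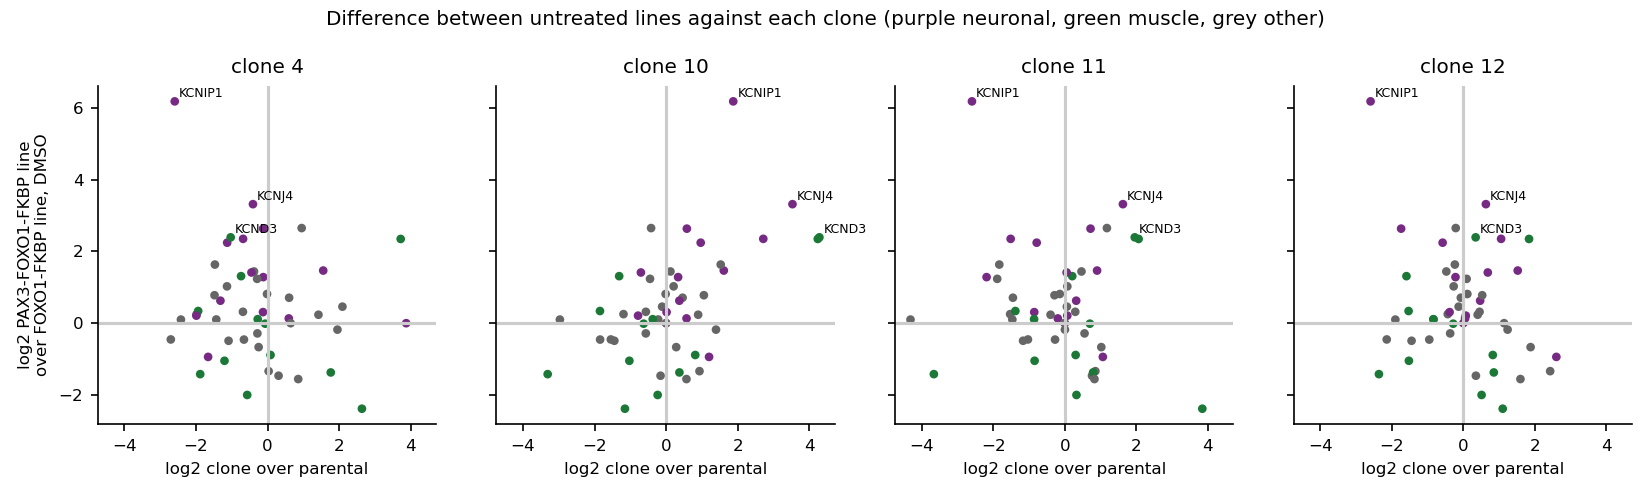
Log2 difference between the untreated PAX3-FOXO1-FKBP and FOXO1-FKBP lines (y axis) against the log2 difference of each clone over parental cells (x axis), for the 50 described potassium channel genes in purple (neuronal), green (muscle) and grey (other). Pearson r is 0.51 for clone 10 and -0.14, -0.14 and -0.24 for clones 4, 11 and 12.

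Genes that work with potassium channels were counted from 2 further lists. Of 17 partner genes (sulfonylurea receptors, DPP and LRRC subunits, scaffolds and pacemaker channels), 6 were tested in the PAX3-FOXO1-FKBP trend and 0 called, beside 4.42% of all genes. In the clones 8 were tested, with 2 higher and 3 lower for clone 4, 3 and 1 for clone 10, 0 and 3 for clone 11, and 0 and 2 for clone 12. Over all genes, between 22.3% and 27.8% were called in each direction in each clone. ABCC9 encodes SUR2, the receptor that completes the ATP-sensitive channels of heart, skeletal and smooth muscle. It fell in all 4 clones, at log2 changes of -1.58, -2.54, -1.35 and -1.64 in clones 4, 10, 11 and 12 (edgeR adjusted p from 2.38e-05 to 0.000402). DLG4 (PSD-95), a scaffold that gathers Kv1 and Kir2 channels at synapses, fell in clone 4 at -2.70 (adjusted p = 8.48e-05).

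Of 13 genes of the sodium-potassium pump and the chloride cotransporters that carry potassium, 10 were tested. The PAX3-FOXO1-FKBP trend called 0 higher and 1 lower (beside 2.28% and 2.14% of all genes), and the slope difference called 1 (beside 2.05%). In the clones the calls were 2 higher and 1 lower for clone 4, 4 and 1 for clone 10, 2 and 5 for clone 11, and 2 and 2 for clone 12. The share of all genes called was between 22.3% and 27.8% in each direction in each clone. SLC12A4 (KCC1), which exports potassium with chloride, rose in all 4 clones, at log2 changes of 1.22, 1.42, 0.71 and 0.73 in clones 4, 10, 11 and 12 (adjusted p from 0.000293 to 0.012).

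The remaining described genes had low counts or small differences. KCNJ14 (Kir2.4), a neuronal rectifier, was called in no clone and lay between 22.9 and 71.1 normalised counts in the clone libraries, against 41.4 and 45.8 in parental libraries. KCNA7 had 2.05 to 6.94 in clone libraries, against 8.28 and 12.02 in parental libraries, and was below the filter of the clone test. KCNA6, KCNE2, KCNG2, KCNH3, KCNJ10, KCNJ13, KCNK3, KCNK10 and KCNQ5 were also below that filter, and none exceeded 13.23 normalised counts in a clone or parental library. Of the 46 genes below 10 counts in every column, 6 had none at all. The 46 include well-known neuronal Kv1, Kv7 and GIRK genes such as KCNA1, KCNA2, KCNQ3 and KCNJ6, and muscle types such as KCNA5, KCNQ1 and KCNE1. Whether those genes are silent or merely below this depth was not detectable.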

How the data were processed

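RNA was measured by sequencing in 30 samples of Rh30 cells. The deposited time-course tables hold an estimated count per gene in 1 column per condition of 2 samples (73.6% of values are not whole); how the authors combined the samples is not stated, and the columns are treated as pooled. The deposited clone table holds whole counts per gene in each library. Per the submitters' processing notes, the tools included Cuffdiff 2.1.1, Bowtie2 and Trimmomatic 0.32, on hg19. Their roles, the annotation counted and the strand setting were not given in the sources used here.

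Estimated counts were rounded to whole numbers before testing. Clones were set against parental cells with edgeR 4.0.16 (quasi-likelihood test, TMM factors, filterByExpr with a minimum count of 10, 5 residual degrees of freedom). Trends on log2 of hours plus 1 were fitted per line on genes with a mean of at least 10, and in 1 joint model for the slope difference. Adjusted p-values are Benjamini-Hochberg over all genes tested, with a threshold of 0.05. Log2 changes from DMSO add a prior count of 2. Alternatives were DESeq2 1.42.0, other scalings, filters and prior counts, left-out libraries or columns, a replicate block, and a GC and length correction added after seeing the data. The tests were tried on simulated data. R 4.3.3, Python 3.11.15, pandas 2.3.3 and scipy 1.17.1 were used. Floors and intervals cover counting error only.

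Genes given in full were those called in any contrast, those 2-fold from DMSO at any time with a mean of at least 50, the 10 with the highest mean, and KCNN4 and KCNA3; partner and pump genes were given for up to 4 called members by lowest p. The clone 12 columns name the group but not the replicate, and are called libraries a and b. The members and lists were chosen with earlier results of these data known. A few genes of the lists are included in the fits and counts but are not reported here by name.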

Additional observations from a re-analysis of the deposited data

How the results depend on the processing

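The 2 h column with B lineage RNA, time-course columns without replicate error, and clone groups of 2 libraries limit these results. Leaving out 1 library at a time gave 6 to 10 members higher and 7 to 19 lower for clone 4, 7 to 14 and 5 to 10 for clone 10, 4 to 13 and 7 to 13 for clone 11, and 5 to 11 and 8 to 10 for clone 12. Such fits leave 1 arm with 1 library, which is assumed to vary like the other groups. Of 81 clone calls, 27 were lost without parental library 1 and 29 without parental library 2. Library totals in place of TMM gave 5 members higher in clone 11. The clone fits with DESeq2, with DESeq2 size factors in edgeR and with no filter kept every count of members within 1.5 times.

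The PAX3-FOXO1-FKBP trend had 0 members higher and 0 lower without the 72 h column, and 2 lower (KCNK13 added) without the 2 h column or with library totals. DESeq2 gave 4 lower, adding KCNC1, KCNK13 and KCNS3. With the mean lowered to 10, the 2-fold rule gave 2 members at 2 h, 7 at 6 h and 9 at 72 h in the PAX3-FOXO1-FKBP line, and 1 each at 6, 24 and 72 h in the FOXO1-FKBP line. The share of all genes at that minimum is not given here. At 6 h the 2-fold rule gave 1 with library totals and 1 with a prior count of 10. The neuronal median at 72 h was 0.26 with library totals, 0.34 with a prior count of 10, 0.34 with a mean of at least 50 and 0.36 with DESeq2 size factors. The muscle median was -0.18 with library totals and -0.08 with a prior count of 10 or DESeq2 size factors. The causes were not tested. No single-gene call turned its direction in any of the fits tried, but the balance of higher and lower calls did in some. With library totals, clone 12 had 7 members higher and 10 lower, against 10 and 9 in the main fit.

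Replicate numbers 1 and 2 did not pair parental with clone libraries (correlation of deviations 0.01 to 0.02, against 0.15 to 0.36 among clones 4, 10 and 11). With the number as a replicate block on those 8 libraries, members were called 8 higher and 15 lower for clone 4, 12 and 7 for clone 10, and 6 and 11 for clone 11. The same 8 libraries without the block gave 6 and 15, 11 and 7, and 6 and 10. The clone 12 columns carry no number.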

Other observations

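KCNQ1OT1, the long antisense transcript of the imprinted KCNQ1 locus, was left out of the channel genes by its name but was counted at a high level. Normalised counts were 563 and 251 (clone 4), 549 and 322 (clone 10), 793 and 415 (clone 11), 275 and 161 (clone 12), against 2208 and 2315 in parental cells. All 8 clone libraries were below both parental libraries. In the PAX3-FOXO1-FKBP line the DMSO, 2, 6, 24 and 72 h columns read 4828, 6209, 6041, 5105 and 7394. Those of the FOXO1-FKBP line read 4526, 4230, 4424, 3829 and 5275, so the 72 h column was the highest in both lines. KCNQ1 itself, the slow cardiac Kv pore, stayed at 2 counts or fewer in every column. Without the strand setting, reads of KCNQ1OT1 and of KCNQ1 introns cannot be told apart.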
